A study of Saccharomyces cerevisiae with 96 samples.

Results

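The genes described here are 10 of the 6701 genes of *Saccharomyces cerevisiae* in the expression table. They were chosen by name, as a set of nucleolar proteins that process or modify ribosomal RNA, and not by their measured values. The set holds *NOP1* (YDL014W), *NOP56* (YLR197W), *NOP58* (YOR310C), *GAR1* (YHR089C), *CBF5* (YLR175W), *NSR1* (YGR159C), *NOP2* (YNL061W), *DBP3* (YGL078C), *SSF1* (YHR066W) and *FPR3* (YML074C). All 10 genes had a value in each of the 48 columns. Each has 1 coding exon in the R64 annotation, and no other annotated gene overlaps it. Expression is given as RPM, reads per 1000000 mapped reads after PCR duplicates were collapsed by molecular identifier.

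The study sequenced polyadenylated RNA of 12 wild type strains and of the population derived from each by serial dilution on xylulose for about 300 generations. Xylulose is a pentose sugar that yeast meets rarely, and the study asked how expression on it differed from that on glucose before and after adaptation. The strains, by number, were YPS1009 (1), T73 (2), T7 (3), Y12 (4), YJM269 (5), PW5 (6), CLIB215 (7), CLIB324 (8), CBS7960 (9), EC1118 (10), BY4743 (11) and SK1 (12). Both kinds were grown in rich YP medium to log phase, with glucose in YPD or with xylulose in YP-xylulose, a medium that also held xylose left over from the preparation of xylulose. The 4 groups were thus wild type on glucose, wild type on xylulose, evolved on glucose and evolved on xylulose, each with 12 columns. Each evolved sample is a population and not a clone, and 1 evolved population was measured for each strain, so a population cannot be told apart from its strain. By the study's account a column is the mean of 2 repeats. Errors and tests here therefore rest on the 12 strains as replicates, and the repeats' own scatter was not analysed here.

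Ribosome production begins in the nucleolus, where a long precursor RNA is transcribed, chemically modified, cut and folded into the RNAs of the small (40S) and large (60S) subunits. Box C/D small nucleolar ribonucleoproteins (snoRNPs) guide methylation of the precursor and box H/ACA snoRNPs guide its pseudouridylation, while helicases and assembly factors remodel the growing particles. In yeast the genes for these factors form the ribosome biogenesis (Ribi) regulon, which is known for rising and falling together with growth and for carrying a pair of short promoter elements, PAC and RRPE.

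All 10 genes carry a PAC or an RRPE core before their start codon. The 250 bases before the start codon were read from the R64 genome and searched on both strands for GATGAG, the core of PAC, for the longer form GCGATGAG that contains it, and for AAAATTTT, the core of RRPE, which reads the same on both strands. GATGAG occurred in 9 of the 10 genes and in 17% of the 6007 promoters of annotated genes. GCGATGAG occurred in 4 of 10 (*NSR1*, *NOP2*, *DBP3* and *SSF1*), against 3.83% of all promoters. AAAATTTT occurred in 9 of 10, against 8.66% of all. *FPR3* had no GATGAG and *SSF1* no AAAATTTT in this window. The sequences below are shown because these 5 genes passed the test in at least 1 of the comparisons that follow. They run 5′ to 3′ on the strand of the gene, with the 3 cores in capitals (a PAC core on the opposite strand reads CTCATC).

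NOP1: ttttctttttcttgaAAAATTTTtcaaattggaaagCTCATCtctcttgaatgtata
GAR1: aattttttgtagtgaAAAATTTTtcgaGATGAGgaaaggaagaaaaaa
NOP2: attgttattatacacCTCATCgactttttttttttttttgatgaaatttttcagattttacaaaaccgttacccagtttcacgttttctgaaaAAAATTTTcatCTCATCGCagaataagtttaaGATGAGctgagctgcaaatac
DBP3: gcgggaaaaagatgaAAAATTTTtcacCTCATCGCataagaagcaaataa
SSF1: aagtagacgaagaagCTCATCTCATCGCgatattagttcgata

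*NOP1* itself lies at chrIV:427364-428347 (R64, plus strand), *GAR1* at chrVIII:282681-283298 (minus), *NOP2* at chrXIV:510540-512396 (plus), *DBP3* at chrVII:360288-361859 (minus) and *SSF1* at chrVIII:229335-230696 (plus). The other coding sequences are at chrXII:546097-547611 (*NOP56*, plus), chrXV:896825-898360 (*NOP58*, minus), chrXII:506134-507585 (*CBF5*, plus), chrVII:806412-807656 (*NSR1*, minus) and chrXIII:120089-121324 (*FPR3*, minus). The *NOP1* stretch lies at chrIV:427124-427180 on the plus strand, 240 to 184 bases before the start codon. That of *GAR1* is chrVIII:283403-283450 on the minus strand, 152 to 105 bases before it. The *NOP2* stretch, chrXIV:510305-510450 on the plus strand, held 3 PAC cores around its single RRPE core. The *DBP3* stretch is chrVII:361980-362029 on the minus strand and that of *SSF1* is chrVIII:229218-229260 on the plus strand. In *SSF1* a pair of PAC cores overlaps by a single base and no RRPE core is near. Among the lists of related genes, GATGAG was present in 86.4% of 59 promoters of small subunit processome and 40S assembly factors and in 88.9% of 63 promoters of 60S assembly factors, but in 10.2% of 137 promoters of cytosolic ribosomal proteins. A match describes the letters only, and binding of a factor was not measured.

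**Figure D1:**
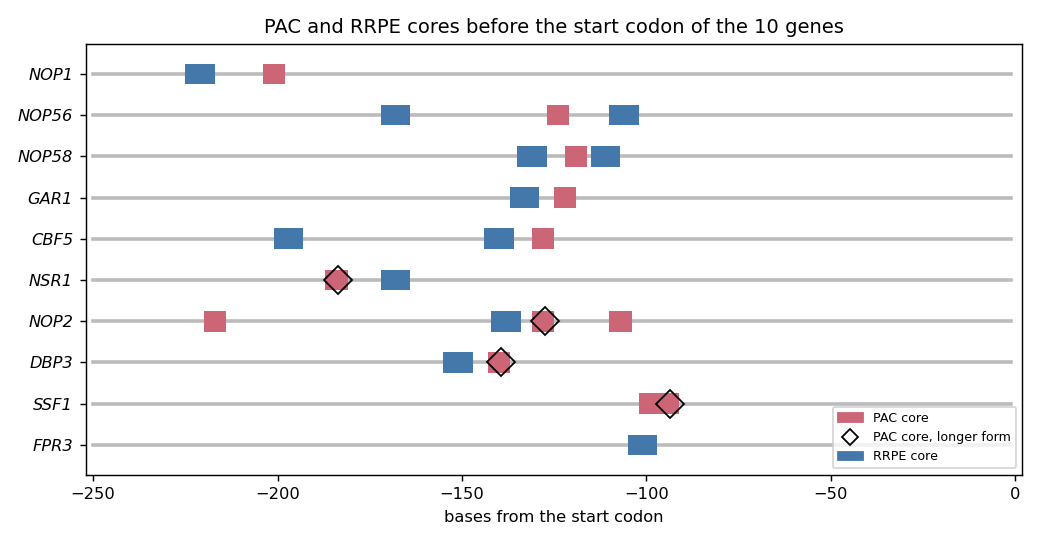
Position of PAC cores (red), their longer form (open diamond) and RRPE cores (blue) in the 250 bases before the start codon of each of the 10 genes, in bases on the horizontal axis. Cores were found in all 10 genes, with no PAC core in *FPR3* and no RRPE core in *SSF1*.

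The columns were checked before the comparisons, and the strain numbers of the evolved columns went against the labels for 8 of the 12. *LEU2*, which is deleted in BY4743 (number 11), was blank in wild type 11 on both sugars, but in the evolved columns it was blank in number 7 on both sugars and had a value in number 11. Over 59 genes with strain-typical levels, which correlated above 0.8 between the wild type columns on the 2 sugars, evolved columns 5 to 12 correlated with the wild type of their own number at a mean r of -0.17 on xylulose and -0.03 on glucose. With 5 to 8 exchanged for 9 to 12 the mean r was 0.85 and 0.55. Evolved columns 1 to 4 matched their own number at 0.70 and 0.52. Mean ratios over 12 strains do not depend on the pairing, but the tests of evolved against wild type do, so these are given as labelled and with the exchanged numbers. Low values lay on steps of a single read in 17 columns, which had from 253353 to 1114161 counted reads (median 680990), so that 10 RPM, the minimum under which the table is blank, stood for 6.81 reads at the median depth. The depth of the other 31 columns is unknown. A mean of 2 repeats that were scaled separately would not lie on steps of a single size. The 17 columns may thus hold 1 repeat or the pooled reads of both, which was not tested. Of the evolved columns on xylulose only number 1 was among them. The evolved columns on glucose also stood apart in genes of a cells and of phosphate starvation. Medians of the a cell genes *MFA1*, *MFA2* and *STE2* were 460, 602 and 221 RPM there, but 0, 18.5 and 0 RPM (blank taken as 0) in the wild type on glucose, and those of *PHO5* and *PHO84* were 256 and 492 RPM against 30 and 17.5 RPM. The evolved populations on xylulose did not share this, with medians of 0, 15.2 and 0 RPM for the a cell genes and of 0 and 5.91 RPM for *PHO5* and *PHO84*. The 3 alpha cell genes checked had medians of 0 to 8.67 RPM in all of these groups. These differences stand beside every comparison that uses the evolved glucose columns, among them the xylulose/glucose ratios after evolution. Their part in these comparisons was not tested.

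In the wild type strains, 8 of the 10 genes had a lower mean log2 level on xylulose than on glucose and *NOP2* and *SSF1* had a higher one. In the paired test across 5129 genes (limma, genes averaging 10 RPM or more, Benjamini-Hochberg adjusted p under 0.05), 2 of the 10 genes were called higher, *NOP2* and *SSF1*, and 2 were called lower, *NOP1* and *GAR1*. Of all genes tested, 30.5% were called higher and 9.38% lower, with a median of 0.31 on the log2 scale. The median of the 10 genes was -0.15, and 8 of them lay below the median of all genes. In whole cultures, fewer cells with a given RNA and less of it per cell cannot be told apart. The split also moved with the scaling. Median-of-ratios scaling put the median of all genes at 0.14, with 1114 called higher and 664 lower in place of 1562 and 481, and then *NOP2* was called higher and 4 of the 10 genes lower (*NOP1*, *GAR1*, *NSR1* and *NOP56*). Without the pairing by strain 1 of the 10 genes was called, *NOP2*.

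Of the box C/D genes, *NOP1* encodes the yeast fibrillarin, the methyltransferase of these particles. In the wild type strains its level on glucose ranged from 232 RPM in YJM269 to 567 in BY4743, with a median of 434. On xylulose it ranged from 136 in YPS1009 to 523 in T73, with a median of 309. The groups overlapped, and the 4 strains in which *NOP1* was not lower on xylulose were T73, Y12, PW5 and CLIB324. Between the sugars *NOP1* differed by -0.47 in log2 (standard error 0.18, adjusted p = 0.0394 by limma), and 8 of 12 strains moved down. The call was lost without any single one of strain numbers 1, 3, 5, 7, 9, 10, 11 or 12, with adjusted p up to 0.0892.

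*NOP56* and *NOP58* encode the paired scaffold proteins of the box C/D particle. In wild type strains *NOP56* ranged from 535 to 1538 RPM on glucose (median 1253) and from 581 to 1591 on xylulose (median 1088). *NOP58* ranged from 931 to 2285 RPM on glucose (median 1675) and from 743 to 2423 on xylulose (median 1488). Neither passed the test, and the sugar groups overlapped almost completely. The log2 ratios were -0.19 for *NOP56* (standard error 0.11, limma adjusted p = 0.166) and -0.10 for *NOP58* (0.13, adjusted p = 0.559). *SNU13*, the remaining core protein of this particle, had a log2 ratio of -0.36 (0.19, adjusted p = 0.139).

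*GAR1*, which encodes a core subunit of the box H/ACA particles, had the lowest ratio of the 10 genes. On glucose its wild type level ranged from 153 RPM in YJM269 to 1693 in CBS7960, with a median of 567. On xylulose it ranged from 113 in YJM269 to 669 in PW5, with a median of 427. The groups overlapped, but *GAR1* was lower on xylulose in 11 of 12 strains, T73 being the exception. The mean difference in log2 was -0.61 (standard error 0.16, adjusted p = 0.00448 by limma), a ratio of 0.655. It remained called when any single strain number was left out, and was not called without the pairing (adjusted p = 0.11). In CBS7960 the other genes of chromosome VIII, where *GAR1* and *SSF1* lie, were also high, as given with the strains, and without this strain the *GAR1* ratio was -0.51 (adjusted p = 0.0118).

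*CBF5* encodes the pseudouridine synthase of the same particles, homologous to human dyskerin. Its wild type level varied little on glucose, from 973 to 1399 RPM (median 1244), and more on xylulose, from 786 to 1731 (median 1080). Its log2 ratio was -0.08 (0.12, limma adjusted p = 0.633). Of the other core subunits, *NHP2* fell on xylulose, with a log2 ratio of -0.49 (0.14, adjusted p = 0.00954 by limma) and 10 of 12 strains lower, and *NOP10* had a ratio of -0.34 (0.15, adjusted p = 0.0696). All 4 core subunits of the H/ACA particle and all 4 of the C/D particle thus had a ratio below 0 in the wild type, of which 2 and 1 were called.

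*NSR1* encodes a nucleolin-like protein needed for processing of the precursor of 18S rRNA. On glucose the wild type strains ranged from 145 RPM in YJM269 to 473 in CBS7960 (median 291). On xylulose they ranged from 93.1 in YJM269 to 426 in CLIB324 (median 190). The xylulose values fell apart into 4 strains at 372 to 426 RPM, which were T73, Y12, PW5 and CLIB324, and 8 strains at 93.1 to 274 RPM. These are the same 4 strains in which *NOP1* was not lower. The log2 ratio of *NSR1* was -0.47 (0.20, limma adjusted p = 0.0739, lower in 9 of 12), which missed the threshold. It passed without strain number 6 (adjusted p = 0.0351) or 8 (0.0174), and with median-of-ratios scaling (0.0131).

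*NOP2*, which encodes an rRNA cytosine methyltransferase required for 60S formation, rose on xylulose. Its level was 20.9 to 87.2 RPM on glucose (median 50.6) and 42.3 to 173 on xylulose (median 102). The groups overlapped, and the level was higher on xylulose in 10 of 12 strains, all but YPS1009 and T7. The rise was 0.94 in log2 (standard error 0.28, adjusted p = 0.0119 by limma), 1.92-fold. It was called in all 21 alternative settings, with adjusted p from 0.00299 to 0.0393.

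*SSF1*, which encodes a 60S assembly factor of the Brix family, also rose. It ranged from 13.3 RPM in YJM269 to 294 in CBS7960 on glucose (median 54.2) and from 52.7 in YJM269 to 189 in YPS1009 on xylulose (median 103). The level was higher on xylulose in 10 of 12 strains, the exceptions being CBS7960 and EC1118, and the groups overlapped. *SSF1* rose by 0.83 in log2 (0.29, adjusted p = 0.0285 by limma), 1.78-fold. The call was lost without strain number 2, 4, 5, 6 or 8 (adjusted p from 0.05061 to 0.0739) and with median-of-ratios scaling (0.0833). The coding sequence of *SSF1* is 92.1% identical to that of its paralog *SSF2* over 1362 bases, and 53 of its 1313 windows of 50 bases, the read length, occur elsewhere in the genome. How the authors' mapping placed such reads is not given in the sources used here. No window of the other 9 genes was found again. Without CBS7960 the rise of *SSF1* was 1.04 (adjusted p = 0.00469). *SSF2* rose as well, from a median of 42.1 to 94.9 RPM, with a log2 ratio of 1.16 (0.23, limma adjusted p = 0.000356, higher in 11 of 12 strains).

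*DBP3*, which encodes a DEAD-box helicase of pre-rRNA processing, and *FPR3*, which encodes a nucleolar prolyl isomerase, did not pass the test in the wild type. *DBP3* ranged from 47.2 to 257 RPM on glucose (median 103) and from 13.9 in YPS1009 to 186 in CLIB324 on xylulose (median 86.6). Its log2 ratio was -0.25 (0.28, limma adjusted p = 0.5), and single strains ran from -2.68 in YPS1009 to 1.08 in CLIB324. *FPR3* had medians of 213 and 214 RPM and a log2 ratio of -0.02 (0.20, adjusted p = 0.941). *FPR4*, its paralog, had a log2 ratio of -0.20 (0.20, adjusted p = 0.456).

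**Figure D2:**
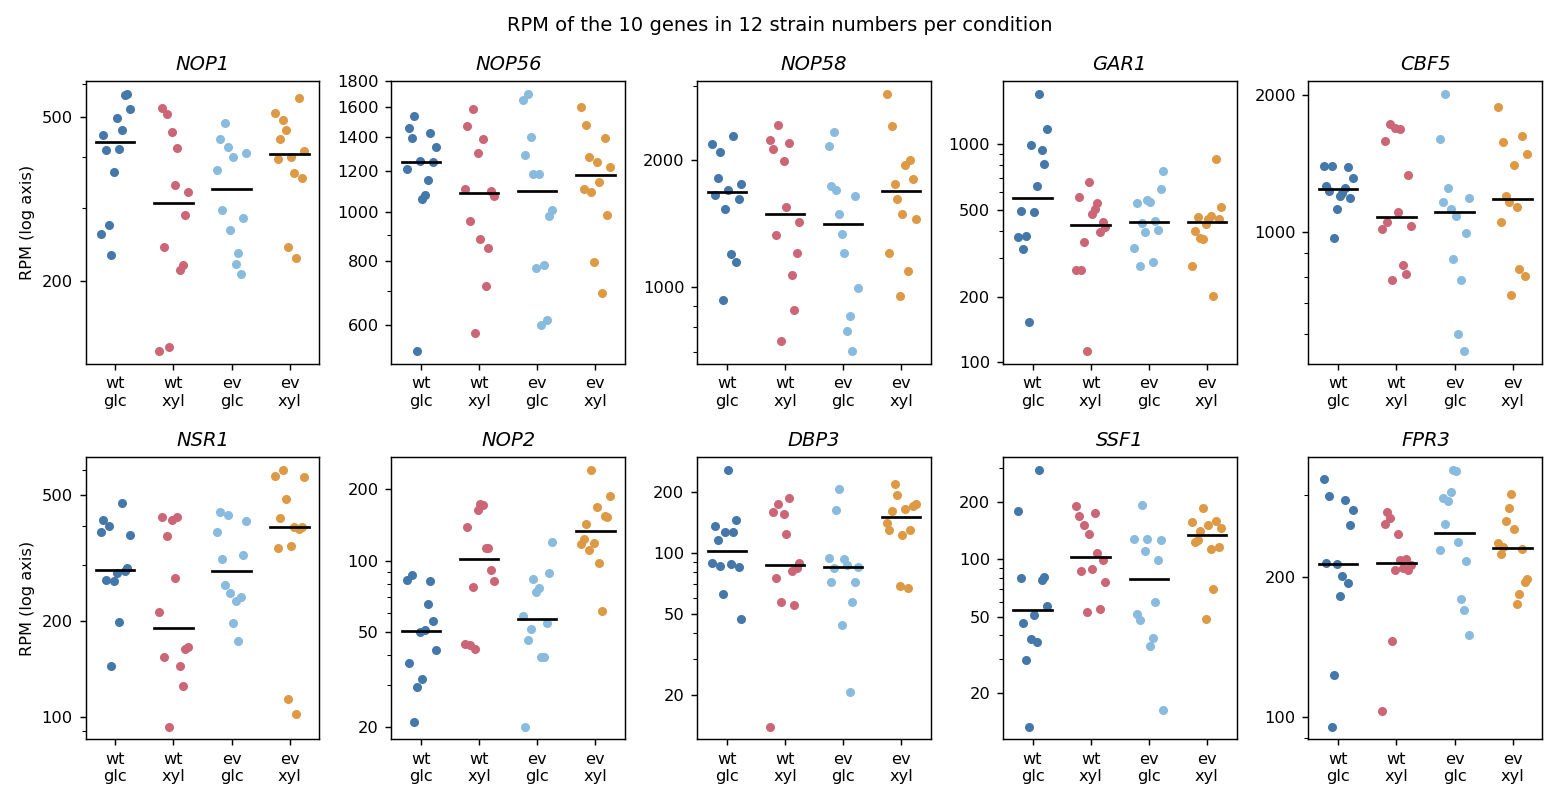
RPM (log axis) of each gene in the 12 columns of each group, wild type (wt) or evolved (ev) on glucose (glc) or xylulose (xyl). Points are strain numbers 1 to 12 from left to right and black lines are medians, and the medians of *NOP2* are 50.6, 102, 56.6 and 133 RPM.

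In the evolved populations 8 of the 10 genes had a higher mean log2 level on xylulose than on glucose, and *GAR1* and *FPR3* a lower one. In the same test 3 genes were called higher, *NOP2*, *DBP3* and *SSF1*, all on the list of 60S assembly factors, and none was called lower (4 of the 10 had an unadjusted p under 0.05 by limma). Of all genes 24% were called higher and 15.5% lower, with a median log2 ratio of 0.08. Median-of-ratios scaling split the calls over all genes into 1023 higher and 1003 lower in place of 1233 and 795, and the same 3 of the 10 genes were called. The median of the 10 genes was 0.27, and 8 of them lay above the median of all genes.

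*NOP2* rose most. It ranged from 20 RPM in number 2 to 120 in number 12 on glucose (median 56.6), and from 61.4 in number 9 to 242 in number 5 on xylulose (median 133). It was higher on xylulose in all 12 strain numbers, though the groups overlapped. The rise was 1.22 in log2 (standard error 0.17, adjusted p = 6.11e-06 by limma), 2.33-fold, and was called in all 21 alternative settings.

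*DBP3* ranged from 20.5 RPM in number 9 to 205 in number 5 on glucose (median 84.7), and from 67.2 in number 9 to 218 in number 4 on xylulose (median 150). It was higher on xylulose in 11 of 12 numbers, the exception being number 5 at 205 and 193 RPM. *DBP3* rose by 0.82 in log2 (0.15, adjusted p = 0.000141 by limma), 1.76-fold, called in all 21 alternative settings with adjusted p up to 0.0156.

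*SSF1* ranged from 16.2 to 193 RPM on glucose (median 79.1) and from 48.8 to 184 on xylulose (median 133). It was higher in 9 of 12 numbers, all but 4, 6 and 11, and the groups overlapped. *SSF1* rose by 0.79 in log2 (0.28, adjusted p = 0.0315 by limma), 1.73-fold. The call was lost without number 2, 3, 5, 7, 8 or 12 (adjusted p from 0.05071 to 0.0768). *SSF2* had a log2 ratio of 0.96 (0.22, limma adjusted p = 0.00124), which also passed.

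The snoRNP genes and *NSR1* did not pass. *NOP1* ranged from 209 to 482 RPM on glucose (median 335) and from 228 to 554 on xylulose (median 406), with a log2 ratio of 0.28 (0.13, limma adjusted p = 0.0983, higher in 9 of 12). *NOP58* had a ratio of 0.31 (0.16, adjusted p = 0.128), *NOP56* of 0.13, *CBF5* of 0.20 and *GAR1* of -0.11, with adjusted p from 0.128 to 0.631. *NSR1* had a median of 287 RPM on glucose and 396 on xylulose and a ratio of 0.27 (0.17, adjusted p = 0.224). It ranged from 102 to 601 RPM on xylulose, where 10 populations were at 341 RPM or more and numbers 6 and 9 stood apart at 114 and 102. Without number 6 it passed (0.39, adjusted p = 0.0488). *FPR3* had a ratio of -0.09 (0.11, adjusted p = 0.558).

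**Figure D3:**
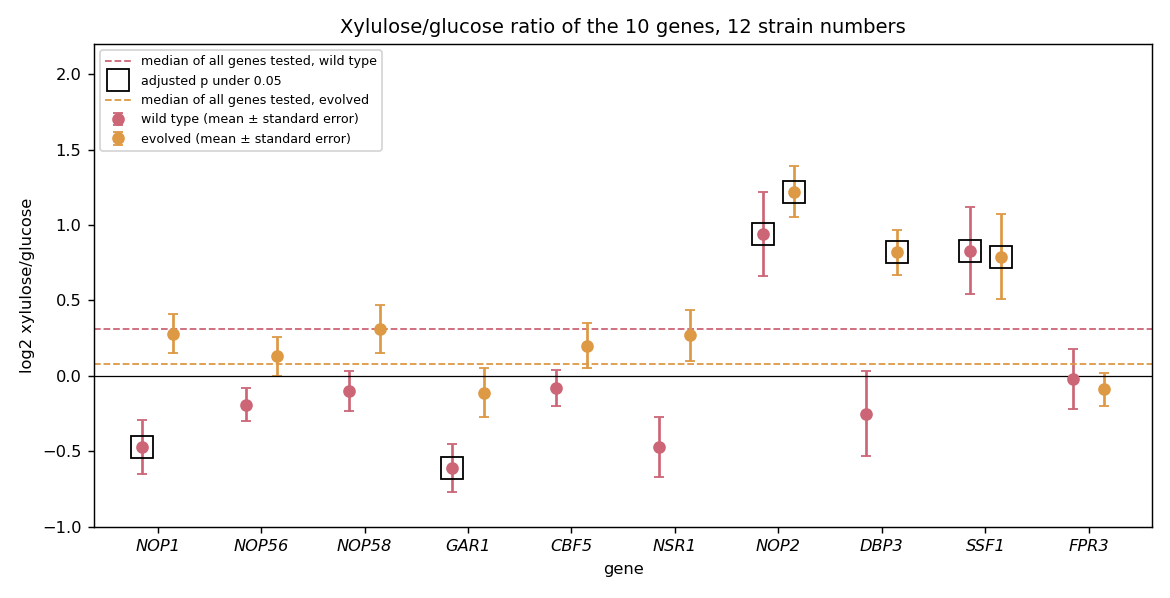
Mean log2 xylulose/glucose ratio of the 10 genes with its standard error over 12 strain numbers, in wild type (red) and evolved (orange) columns. Squares mark an adjusted p under 0.05 and dashed lines the median of all genes tested, 0.31 in wild type and 0.08 in evolved columns, and 6 genes lie below 0 in the wild type and above 0 after evolution.

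The xylulose/glucose ratio was higher after evolution than before it in 8 of the 10 genes. Over all 10 genes the median change was 0.37 on the log2 scale, while the median change of all genes tested was -0.20. Of these 10 genes 6 (*NOP1*, *NOP56*, *NOP58*, *CBF5*, *NSR1* and *DBP3*) had a ratio below 0 in the wild type and above 0 after evolution. In the test of the difference itself 1 of the 10 genes was called higher, *DBP3*, and none lower, with 4 of the 10 under 0.05 in unadjusted p (limma). Of all genes 0.487% were called higher and 4.95% lower.

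The log2 ratio of *DBP3* went from -0.25 to 0.82, a change of 1.07 (standard error 0.32, limma adjusted p = 0.04995, higher in 10 of 12 strain numbers, all but 4 and 8). The adjusted p lies just under the threshold, and the call was lost without number 1, 2, 3, 6, 7, 9, 10 or 11 (adjusted p from 0.05078 to 0.107) and without the pairing (0.151). With the exchanged numbers it was 0.0226. The single strain ratios of *DBP3* had an SD of 1.11 on the log2 scale in the wild type and of 0.47 after evolution. Wild type YPS1009, at 89.1 RPM on glucose and 13.9 on xylulose, gave the lowest ratio. This SD was smaller after evolution in only 5 of the 10 genes.

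*NOP1* had a change of 0.75 (0.25, limma adjusted p = 0.0792, higher in 9 of 12) and *NSR1* one of 0.74 (0.27, adjusted p = 0.103, higher in 9 of 12). With the exchanged numbers both passed, with adjusted p of 0.0226 and 0.047. The calls over all genes rose as well with these numbers, to 77 higher and 377 lower in place of 25 and 254. *GAR1* had a change of 0.50, *NOP58* of 0.42, *NOP56* of 0.32, *CBF5* of 0.28 and *NOP2* of 0.28, with limma adjusted p from 0.174 to 0.681. *SSF1* and *FPR3*, at -0.04 and -0.07, stood near 0, and their sign turned with the scaling (0.05 and 0.03 with median-of-ratios scaling).

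On xylulose all 10 genes had a mean log2 ratio of evolved to wild type above 0, with a median of 0.16, while the median of all genes was -0.02. None was called, with 1 of the 10 genes, *NSR1*, under 0.05 in unadjusted p (limma). Of all genes 0% were called higher and 0.838% lower. *NSR1* had the largest ratio of the 10, 0.69 (standard error 0.31, limma adjusted p = 0.351, higher in 8 of 12). With the exchanged numbers its standard error was 0.18 and its adjusted p 0.0433, higher in 9 of 12, and it was then the only one of the 10 called. The calls over all genes were then 49 higher and 178 lower in place of 0 and 43. *DBP3* had a ratio of 0.65 (0.31, adjusted p = 0.366), *NOP2* of 0.51 (0.27, adjusted p = 0.426) and *NOP1* of 0.44 (0.23, adjusted p = 0.412). The other 6 lay between 0.02 (*CBF5*) and 0.19 (*SSF1*). All 10 values came from wild type xylulose columns that also enter the wild type comparison above, so the comparisons are not independent.

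On glucose none of the 10 genes was called, and none had an unadjusted p under 0.05 (limma). Of all genes 2.28% were called higher and 0.0585% lower, and the median log2 ratio was 0.17. The median of the 10 genes was -0.23. It lay -0.40 from the median of all genes, while on xylulose the difference was 0.18. Of the 10 genes 7 had a ratio below 0, which were *DBP3* (-0.42), *GAR1* (-0.39), *NOP1* (-0.32), *NOP58* (-0.29), *CBF5* (-0.26), *NOP56* (-0.19) and *NSR1* (-0.05). *NOP2*, *SSF1* and *FPR3* lay at 0.23, 0.23 and 0.20. With the exchanged numbers none was called either.

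A few columns held the lowest levels of most of the genes. Among the wild type columns YJM269 (number 5) was among the 3 lowest for all 10 genes on both sugars, and was the lowest for 7 of them on each. Among the evolved columns on xylulose number 9 was among the 3 lowest for all 10 genes and the lowest for 6, and number 6 was among the 3 lowest for 7. Among the evolved columns on glucose, number 8 was among the 3 lowest for 8 genes, number 9 for 7 and number 10 for 6. The label check above pairs evolved number 9 with wild type number 5.

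The highest levels were spread over more columns. On xylulose wild type T73 and CLIB324 were each among the 3 highest for 7 of the 10 genes and Y12 for 6. After evolution numbers 1 and 10 were each among the 3 highest for 6 genes on xylulose. *GAR1* and *SSF1* were highest by far on glucose in wild type CBS7960, at 1693 and 294 RPM, against medians of 567 and 54.2 RPM.

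Whole chromosomes stood high in some columns, and the genes on them were highest in some of these columns and not in others. The shift of a chromosome was taken as the median, over its other genes with a value in every column, of the log2 level minus the mean of the gene over the 48 columns, less the same over all genes. Chromosome VIII, which holds *GAR1* and *SSF1*, was shifted by 1.00 in wild type CBS7960 on glucose and by 0.75 on xylulose (103 genes), and lay between -0.18 and 0.16 in the other 46 columns. Chromosome XII, which holds *NOP56* and *CBF5*, was shifted by 0.39 in evolved number 3 on glucose and by 0.26 in evolved number 1 on xylulose (198 genes), and in their groups these were the columns with the highest *NOP56* and the highest *CBF5*. It was also shifted by 0.29 in evolved 1 on glucose, where both genes were second highest, at 1657 and 1600 RPM. Chromosome XV, which holds *NOP58*, was shifted by 0.36 in evolved 3 on glucose and by 0.35 in evolved 1 on xylulose (219 genes), where *NOP58* was highest, at 2326 and 2869 RPM. On xylulose its shift was larger in evolved 8 (0.41) and 11 (0.36), where *NOP58* was at 1944 and 1800 RPM. It was 0.30 in evolved 3 on xylulose and 0.28 in evolved 1 on glucose, where *NOP58* was second highest, at 2411 and 2155 RPM. On glucose it was also 0.20 in evolved 8 and 0.18 in evolved 11, with *NOP58* at 784 and 1642 RPM. Chromosome VII, which holds *NSR1* and *DBP3*, was shifted by 0.37 in evolved number 4 on xylulose (235 genes), where both were highest, at 601 and 218 RPM. It was also shifted on xylulose in evolved 11 (0.36) and 8 (0.24), both with *NSR1* at 396 RPM, and on glucose in evolved 11 (0.28), with *NSR1* at 323 RPM, and neither gene was highest there. Chromosome XIV, which holds *NOP2*, ran the same way as the rise of *NOP2* on xylulose. In the wild type its shift was above 0 in all 12 columns on xylulose (0.03 to 0.34) and below 0 in 9 of 12 on glucose (-0.18 to 0.13, 177 genes), and after evolution it was above 0 in 11 of 12 on xylulose (-0.01 to 0.12) and below 0 in 10 of 12 on glucose (-0.15 to 0.04). Its highest value, 0.34, was in wild type CLIB215 on xylulose, where *NOP2* was highest at 173 RPM, and without this strain the wild type ratio of *NOP2* was 0.80 (limma adjusted p = 0.0313). Chromosome XII was below 0 in all 12 wild type columns on xylulose (-0.14 to -0.02) and in 2 of 12 on glucose. Chromosome XV was below 0 in 12 (-0.12 to -0.01) and 8. The wild type ratios of *NOP56*, *CBF5* and *NOP58* were below 0 too. After evolution XII and XV were below 0 in 9 and 8 columns on xylulose, while the ratios of these 3 genes were above 0. Chromosomes IV and XIII, which hold *NOP1* and *FPR3*, stayed between -0.11 and 0.11 in all 48 columns. The part of these shifts in the ratios was not tested beyond leaving out single numbers. The number of copies of each chromosome was not measured.

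Several of the columns with low levels also had the highest sums over a list of 22 general stress genes such as *HSP12* and *CTT1*. The summed level was 20196 RPM in wild type 5 on glucose, where the median was 5760, and 18706 on xylulose, where the median was 3059. In the evolved columns it was highest in number 9, at 20999 RPM on glucose (median 8287) and 11717 on xylulose (median 2037). It was second highest on xylulose in wild type 1 (14409 RPM), which held the lowest *NOP1*, *DBP3* and *FPR3*, and in evolved 6 (6481 RPM), which held the lowest *NOP58*, *CBF5* and *SSF1*. Evolved 10 on glucose, among the 3 lowest for 6 genes, also had the second highest sum there (17282 RPM). The lowest sums in the wild type on xylulose, 984 to 1683 RPM, were those of T73, CLIB324, PW5 and Y12, the 4 strains in which *NOP1* was not lower. Other columns did not go this way. Evolved 6 on glucose had the third highest sum (13994 RPM) but was among the 3 lowest for only 2 genes. Evolved 8 on glucose, among the 3 lowest for 8 of the 10 genes, had only the fourth highest sum there (9784 RPM). Wild type BY4743 had the second highest on glucose (12314 RPM) at a median rank of 7.5 of 12 among the columns, counted from the lowest. Evolved 1 on xylulose, among the 3 highest for 6 genes, had the third highest (3604 RPM). Most of the list was also lower on xylulose in the comparisons of sugars. In the wild type 13 of 22 genes were called lower and 1 higher, and after evolution 20 were called lower. Of all genes 9.38% and 15.5% were called lower in these comparisons. In the wild type 6 of the 22 genes had a log2 ratio above 0, among them *HSP12* (0.71), while *CTT1* was at -1.54. The part of the list in the levels of the 10 genes was not tested. With strain numbers 5 and 9 left out, a choice made after seeing the data, 3 of the 10 genes were called in the wild type (*NOP2*, *SSF1* and *GAR1*), 2 in the evolved populations (*NOP2* and *DBP3*) and 0 in the change with evolution, where *DBP3* had an adjusted p of 0.0931.

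**Figure D4:**
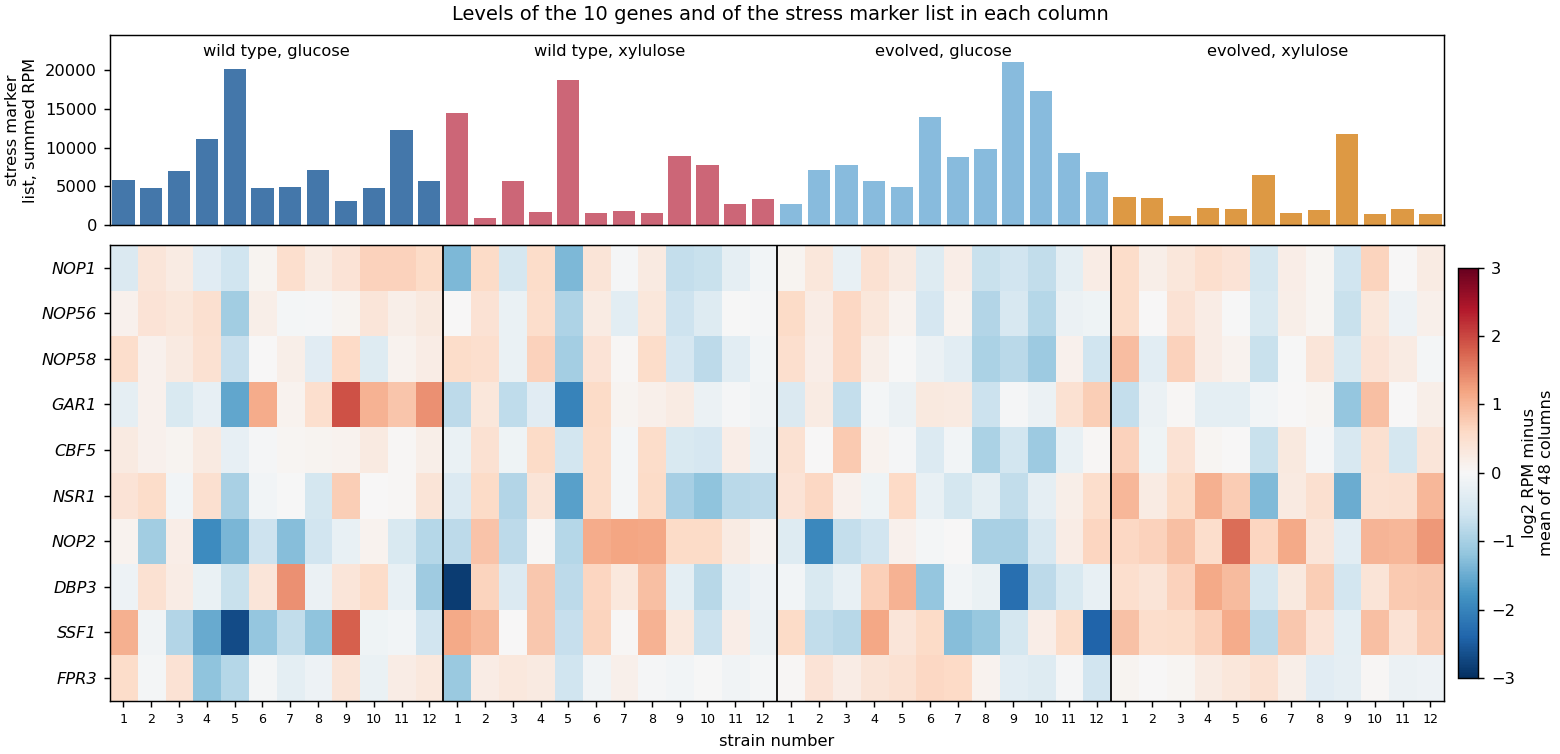
Bars give the summed RPM of 22 stress genes in each of the 48 columns, and the heat map gives the log2 RPM of each of the 10 genes minus its mean over the columns (red higher, blue lower). Wild type number 5 on both sugars and evolved number 9 have the highest bars of their groups, and on xylulose they were among the 3 lowest columns for all 10 genes.

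Over the 48 columns the levels of the 10 genes went together to different degrees. Each gene was set against the mean standardised profile of the other 9. *NOP1* had the highest Pearson r, 0.80, followed by *NOP56* (0.77), *NSR1* (0.76), *NOP58* (0.71), *CBF5* (0.70) and *DBP3* (0.62). *SSF1* (0.49), *GAR1* (0.42), *NOP2* (0.39) and *FPR3* (0.39) went less with the rest. Among the other genes with a value in every column, of 2528 compared, those with the profile most like the mean of the 10 were *MAK21* (0.85), *RLP24* (0.84), *NOP7* (0.83), *RPA190* (0.83) and *UTP10* (0.83). The first 3 encode 60S assembly factors, *RPA190* the largest subunit of RNA polymerase I and *UTP10* a subunit of the small subunit processome. The median r of all genes was -0.03. These values describe columns that share strains and media, and carry no test.

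Factors of both subunits stood higher on xylulose after evolution. In the evolved populations 32 of 60 small subunit processome and 40S assembly genes were called higher and 1 lower, with a median log2 ratio of 0.48. For 60S assembly 34 of 67 genes were called higher and 1 lower, with a median of 0.42. All genes tested had 24% called higher and 15.5% lower there, with a median of 0.08. The 60S list holds *NOP2*, *DBP3*, *SSF1* and *FPR3* and the small subunit list holds *NSR1*, and without the 10 genes the counts were 32 of 59 and 31 of 63 higher. In the wild type 10 of 60 and 13 of 67 were called higher and 3 and 1 lower, with medians of 0.29 and 0.17 beside 0.31 for all genes. Both shares called higher were below that of all genes, 30.5%, and 9.38% of all genes were called lower. All these counts depended on the scaling. With median-of-ratios scaling the wild type had 4 higher and 7 lower in the small subunit list and 4 higher and 4 lower in the 60S list, whose median was then -0.02. After evolution 23 and 22 were then called higher and 2 and 1 lower, with medians of 0.39 and 0.33.

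Single genes of these lists moved further. *RCL1*, which encodes a processome protein required for an early cut of the precursor, had a value in 7 of 12 wild type columns on glucose and in all 12 on xylulose, where its median was 84.3 RPM. Its log2 ratio was 1.91 (0.29, limma adjusted p = 2.57e-05) with blanks at 10 RPM, and 1.47 (0.21, adjusted p = 8.61e-06) after evolution. *URB2* rose most among 60S factors in the wild type, by 1.17 (0.27, limma adjusted p = 0.00193). The helicase gene *DBP2* fell by 1.11 (0.26, adjusted p = 0.00174), from a median of 443 to 221 RPM, and after evolution by 0.47 (0.18, adjusted p = 0.0414). *KRR1* fell by 0.64 in the wild type (0.25, limma adjusted p = 0.0445) and *UTP6* by 0.45 after evolution (0.15, adjusted p = 0.0243).

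The smaller lists are set beside the shares of all genes called higher, 30.5% in the wild type and 24% after evolution. Of 12 tested genes of RNA polymerase I and its initiation factors, 3 were called higher in the wild type and 1 after evolution. *RRN9*, an initiation factor gene with a value in 6 of 12 wild type columns on glucose, had a log2 ratio of 1.32 in the wild type (0.30, limma adjusted p = 0.0013) and a change of -1.34 with evolution (0.38, adjusted p = 0.0361), and *RRN3* had a ratio of 0.61 after evolution (0.21, adjusted p = 0.0226). Of 8 snoRNP assembly genes, 3 were called higher in the wild type, led by *TAH1*, with a log2 ratio of 0.94 (0.26, limma adjusted p = 0.00751). After evolution *RVB2* was called higher (0.37, adjusted p = 0.0255) and *RSA1* lower (-0.60, adjusted p = 0.0498). Of 8 regulators of the Ribi regulon 1 was called, *SCH9*, a kinase gene that had a value in 8 of 12 wild type columns on glucose, with a log2 ratio of 1.60 (0.29, limma adjusted p = 0.000153) and a change of -1.18 with evolution (0.34, adjusted p = 0.0411). Of 18 exosome and pre-rRNA nuclease genes, 3 were called higher in the wild type, led by *DIS3* (0.91, limma adjusted p = 0.0202), and 2 after evolution, led by *RAI1* (0.65, adjusted p = 0.00233), in both cases a share below that of all genes. With median-of-ratios scaling neither *RRN9* nor *SCH9* was called in the change with evolution and *RVB2* was not called after evolution, and in the wild type 1 snoRNP assembly gene and 1 exosome or nuclease gene were called higher.

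The median of the 137 cytosolic ribosomal protein genes was below 0 in the wild type and above 0 after evolution, with 22 and 119 of the genes above 0. In the wild type 72 were called lower on xylulose and 4 higher, with a median log2 ratio of -0.27, beside 9.38% lower and 30.5% higher of all genes. In the evolved populations 32 were called higher and 1 lower, with a median of 0.24. The corresponding shares of all genes were 24% and 15.5%, with a median of 0.08, so the share called higher was close to that of all genes. The change with evolution had a median of 0.52, with 17 called higher and none lower, and 136 of 137 above 0, beside 0.487% higher and 4.95% lower of all genes. The signs of the medians of the 137 genes held with median-of-ratios scaling, where these were -0.45, 0.15 and 0.61. The counts of the 137 genes moved, with 110 called lower in the wild type, 17 called higher after evolution and 18 called higher in the change. Evolved against wild type, the 137 genes had a median of 0.14 on xylulose, with 132 above 0. On glucose the median was -0.40, with 1 above 0. The medians of all genes were -0.02 and 0.17. The larger departure was thus in the evolved glucose columns, which stood apart in other genes too, and its part in the change was not tested. Neither comparison of evolved with wild type called any gene of the ribosome lists.

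**Figure D5:**
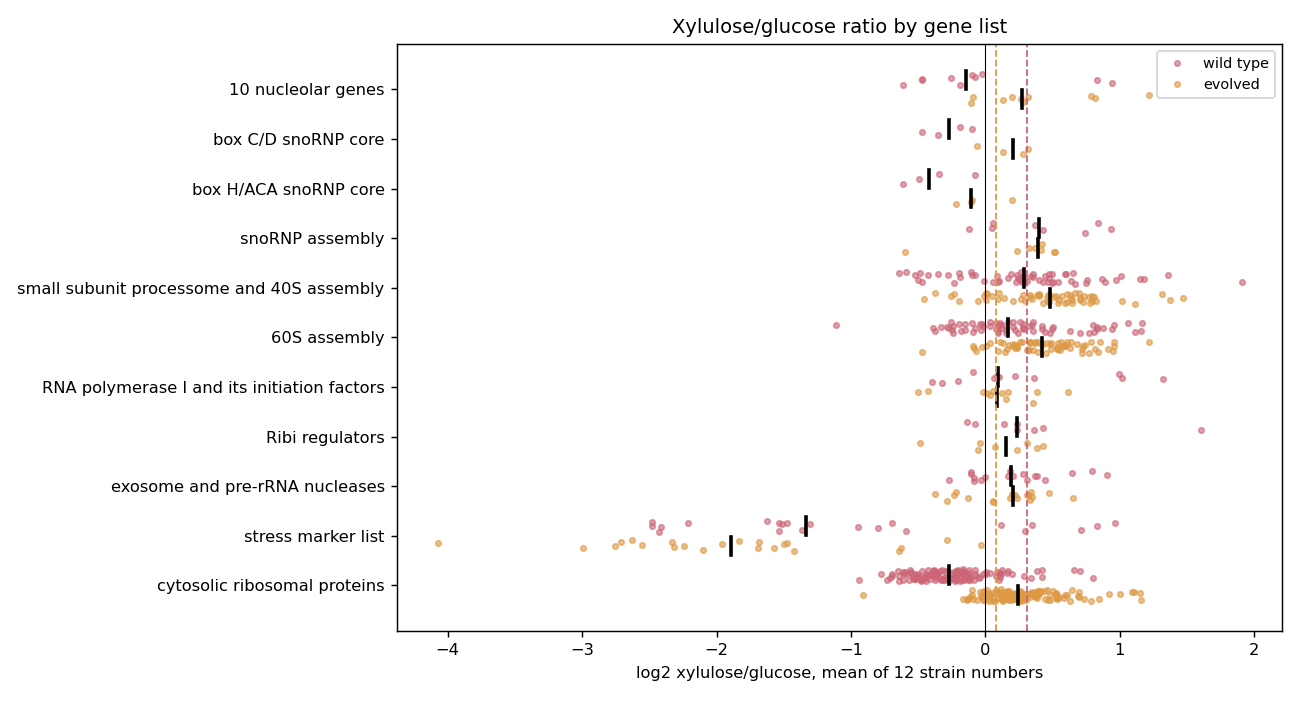
Mean log2 xylulose/glucose ratio of every tested gene (points) of each list in wild type (red) and evolved (orange) columns, with list medians as black bars and the medians of all genes as dashed lines. The bar of the 10 nucleolar genes lies at -0.15 in the wild type and at 0.27 after evolution, and that of cytosolic ribosomal proteins at -0.27 and 0.24.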

How the data were processed

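The authors sequenced 96 libraries with 50 base single reads, aligned them to S288c (R64) with Bowtie (version not given in the sources used here), dropped rRNA reads, collapsed duplicates by molecular identifier and scaled each library to 1000000. The deposited values are log2 RPM of 6701 genes in 48 columns, and 84458 cells under 10 RPM are blank. By the study's account each column is a mean over 2 repeats (how is not stated). Blanks were set to log2(10), and 5953 identifiers were matched to the R64 annotation. The log2 difference of each strain number was tested with limma 3.58.1 (lmFit, eBayes with a trend on mean level) in R 4.3.3 over 5129 genes averaging 10 RPM or more, with Benjamini-Hochberg adjustment over all of them and a threshold of 0.05. The test was checked on simulated data. The study calls the 2 repeats biological. Nothing in the labels names a batch. Strain numbers pair the columns, as the same strain was grown on both sugars. The residual correlation of the paired columns exceeded 0.1 for 7 of 12 wild type and 10 of 12 evolved pairs of sugars, but for only 2 of 12 (glucose) and 3 of 12 (xylulose) pairs of wild type and evolved. Genes named were the 10 genes, the paralogs *SSF2* and *FPR4*, the gene with the largest called rise and fall of each pathway list, and the 5 genes most alike in profile. *SNU13*, *NOP10*, *LEU2*, *MFA1*, *MFA2*, *STE2*, *PHO5*, *PHO84*, *HSP12* and *CTT1* were named outside this rule, after their values were seen. The genes and lists were chosen with earlier results of these data known. Alternatives were median-of-ratios scaling, pseudocounts of 1, 10 and 30, other filters, no pairing, exchanged numbers, numbers 1 to 4 only and leaving out each strain number (numbers 5 and 9 together were left out after seeing the data). The 17 columns with recoverable depth had 253353 to 1114161 reads.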

Additional observations from a re-analysis of the deposited data

Results flagged for a closer look

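The response of *DBP3* to the sugar was called different between wild type and evolved columns, just under the threshold. Its xylulose/glucose log2 ratio was -0.25 in the wild type strains and 0.82 after evolution, and the difference was tested itself. It came to 1.07 (standard error 0.32, limma adjusted p = 0.04995, higher in 10 of 12 strain numbers). Over 23 alternative settings the change ranged from 0.74 to 1.22 with adjusted p from 0.0226 to 0.504, and it was called in only 7 of them. The level of *DBP3* in wild type YPS1009 on xylulose, 13.9 RPM, lies close to the minimum of 10 RPM, where few reads stand behind a value, and without this strain number the change was 0.87 (adjusted p = 0.0956).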

How the results depend on the processing

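Of 1110 values of single genes under the alternatives, 1020 kept their direction and their side of the threshold, 45 lost a call, 11 gained one and 34 changed sign. The cause was not tested for any of them. In the wild type, 4 of the 10 genes were called, against 2 without a filter on low levels, 1 without the replicate block (the pairing by strain) and 2 to 4 when single strain numbers were left out. In the change with evolution 1 was called, against 2 with median-of-ratios scaling, 3 with the replicate block on exchanged numbers, 0 to 2 without single numbers, and 0 in each of these settings: pseudocounts of 1 and 10, no filter, a mean of at least 50 RPM, genes with a value in every column, no replicate block, numbers 5 and 9 left out, and numbers 1 to 4 only. Between evolved and wild type on xylulose the count went from 0 to 1 with exchanged numbers. After evolution it stayed at 2 to 4 without single numbers. Of the signs that turned, the change with evolution of *SSF1* was 0.05 and of *FPR3* 0.03 with median-of-ratios scaling, and of *SSF1* 0.00 with a pseudocount of 30. With numbers 1 to 4 only it was -0.06 for *CBF5* and -0.04 for *NOP58*. In the same numbers evolved against wild type was -0.07 for *SSF1* and -0.02 for *NOP58* on xylulose, and 0.20 for *NOP1*, 0.15 for *CBF5*, 0.11 for *NOP56*, -0.25 for *NOP2* and 0.03 for *NOP58* on glucose. Without numbers 5 and 9, chosen after seeing the data, *NOP58* was 0.02 in the wild type and *CBF5* -0.03 between evolved and wild type on xylulose. Leaving out single numbers moved *FPR3* in the wild type from -0.16 to 0.13, the change with evolution of *SSF1* from -0.30 to 0.24 and of *FPR3* from -0.23 to 0.08, evolved against wild type on xylulose of *GAR1* from -0.03 to 0.25 and of *CBF5* from -0.07 to 0.13, and on glucose of *NSR1* from -0.20 to 0.08 and of *SSF1* from -0.02 to 0.46. Counts over all genes moved by over 1.5 times as well. Genes with a value in every column, 2528 tested in place of 5129, gave 1170 calls in place of 2043 in the wild type and 1188 in place of 2028 after evolution. They gave 101 in place of 279 in the change and 11 in place of 120 between evolved and wild type on glucose. Between evolved and wild type on xylulose they gave 46 in place of 43. The change had 172 calls with a pseudocount of 1, 169 without the replicate block, 454 with exchanged numbers and 31 with numbers 1 to 4. Evolved against wild type on xylulose had 43, against 1 without a filter, 81 without the block, 227 with exchanged numbers, 28 with numbers 1 to 4 and 1 to 90 without single numbers. On glucose it had 52 with a mean of at least 50 RPM, 9 with numbers 1 to 4, and 72, 70 and 76 without number 6, 8 or 10. At the median depth of 680990 reads 10 RPM is 6.81 reads, and it is fewer in a column of lower depth. Levels near that minimum are thus the least precise. An example is *DBP3* in wild type YPS1009 on xylulose, a column of 360377 reads.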
